A study of Mus musculus with 7 samples.

Results

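Among nuclei of mouse small cell lung cancer (SCLC), 410 of 38254 carried a set of neuronal genes at a high level. They were chosen by their own counts. A nucleus was taken when at least 4 of the 5 genes Grik2, Lrrtm4, Nrxn3, Adarb2 and Erbb4 had a transcript and when these genes together made up at least 0.3% of its transcripts. Of these neuronal-gene nuclei, 404 (98.5%) came from a single animal, RPC1. The label of an RPC population therefore described 1 of the 2 RPC tumors.

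Single-nucleus RNA sequencing (Parse Evercode) was performed on lung tumors of 4 male mice, 2 per genotype, which were fresh-frozen at endpoint. RP mice carried Rb1 fl/fl and Trp53 fl/fl, and RPC mice carried in addition a Casp8 deletion, which the labels write as Casp8-/- and the methods of the study describe as a conditional allele. All 4 animals inhaled an adenovirus (Ad5-CMV-Cre) as young adults, and its CMV promoter does not restrict Cre recombinase to one lung cell type. The labels give no age for these animals, and each animal contributed tumor material whose number of clones is unknown. Here RP and RPC denote animals so labelled: Casp8 was detected in all 4 animals, at 59.0 CPM in RP1, 62.7 CPM in RP2, 93.2 CPM in RPC1 and 67.6 CPM in RPC2 (CPM, the standard scaling of a gene's counts to the total of the sample), but these counts cover the whole gene and do not show a deleted stretch.

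The 5 genes that defined the nuclei belong to the machinery of synapses and of neuronal signaling. Nrxn3 encodes a neurexin, a presynaptic adhesion protein, and Lrrtm4 one of the leucine-rich repeat proteins that bind on the postsynaptic side. Grik2 encodes a subunit of the kainate class of ionotropic glutamate receptors, Erbb4 a receptor tyrosine kinase for neuregulins, and Adarb2 a brain-expressed member of the family of adenosine deaminases acting on RNA, for which no editing activity of its own is established. In the brain, Adarb2 and Erbb4 are known together from inhibitory interneurons. SCLC is a neuroendocrine tumor, and its cells normally share secretory and some synaptic genes with neurons.

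The animals differed in how many nuclei met the rule. Of 8363 nuclei of RP1, 0 did, which allows a share of up to 0.0359%. RP2 had 1 of 8874 nuclei (0.0113%), RPC2 had 5 of 10164 (0.0492%, exact 95% interval 0.0160 to 0.115), and RPC1 had 404 of 10853 (3.72%, 3.37 to 4.10). These intervals cover counting error only. RPC1 stood apart from the 3 other animals, including the other animal of its own genotype. The mean share was 1.89% ± 2.60 (SD, n = 2) in RPC and 0.00563% ± 0.00797 (SD, n = 2) in RP. The difference of 1.88 percentage points gave p = 0.333 in a two-sided exact permutation test over animals, the smallest p that 2 animals against 2 can give. Without RPC1 the difference was 0.0436 percentage points. Genotype and single tumor cannot be told apart for this population.

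Within RPC1 the nuclei were spread over the whole experiment. The first barcoding round placed the animal in 3 wells, which are technical divisions of 1 nuclei suspension, and the nuclei made up 4.03%, 3.43% and 3.66% of wells C3, C4 and C5 (3.71% ± 0.305, SD, n = 3 wells). The 6 wells of the other animals lay between 0 and 0.0757%, so that no well of another animal came near those of RPC1. In the 7 sublibraries, which are parts of the pool that were sequenced separately, the share in RPC1 ran from 3.04% to 5.28%. No barcode occurred in more than 1 animal and no first-round well held more than 1 animal.

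**Figure D1:**
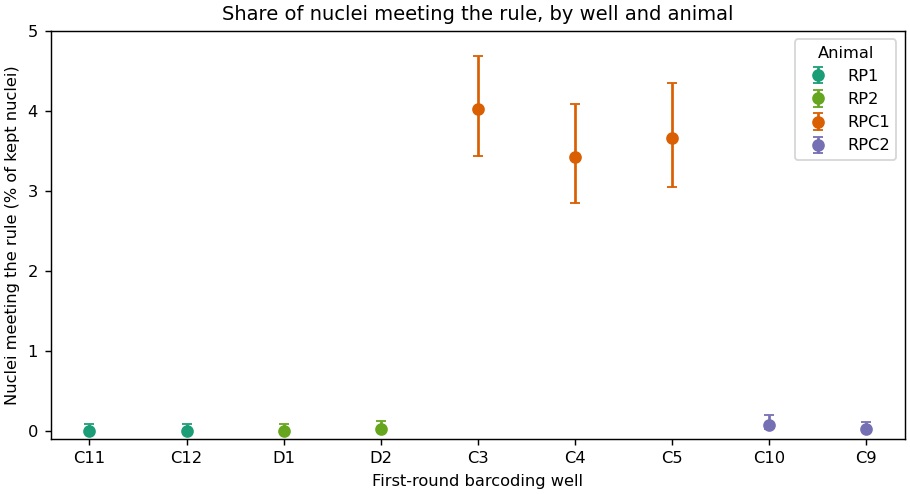
Percent of nuclei that met the rule in each first-round well, by animal, with exact 95% binomial intervals (counting error only). The 3 wells of RPC1 sit between 3.43% and 4.03%, and the 6 wells of RP1, RP2 and RPC2 between 0 and 0.0757%.

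Nuclei of RPC1 were deeper, with a median of 3392 transcripts, against 2255, 2223 and 2767 in RP1, RP2 and RPC2. When each nucleus was thinned to 2000 transcripts and shallower ones were left out, 258 of 8718 nuclei of RPC1 (2.96%), 4 of 6848 of RPC2 and none of the 4668 of RP1 and 4926 of RP2 met the rule, against 357 (4.09%), 4, 0 and 1 of the same nuclei before thinning. Thinned to 1000 transcripts, the share was 1.70% in RPC1 and 0.0212% in RPC2. The depth thus changed how many nuclei were found, and RPC1 held most of them at each depth.

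The chosen nuclei of RPC1 were deeper than the rest of the tumor, which the rule favors, since a nucleus with more transcripts is more likely to show 4 of the 5 genes. Their median was 4836 transcripts and 2547.5 genes, against 3357 transcripts and 1945 genes in the other nuclei of RPC1, and they held 5.10% of the transcripts of the animal. Mitochondrial transcripts were a median of 0.286% in them and 0.521% in the others. The 5 genes made up a median of 1.05% of their transcripts (range 0.30 to 4.34), with all 5 genes detected in 203 nuclei and 4 in 201. The border was not empty. In RPC1, 21 chosen nuclei had between 0.30% and 0.35% of their transcripts in the 5 genes, 11 nuclei with 4 genes missed the rule between 0.25% and 0.30%, and 84 nuclei reached the share with 3 genes. No doublet caller was run. When deep nuclei were removed, those with over 4 times the median depth of the animal, the rule still found 324 of 9741 nuclei of RPC1 (3.33%).

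Levels below are given as CPM of the transcripts summed over the nuclei of a group, in which more nuclei expressing a gene and more RNA of it per nucleus cannot be told apart. Log2 differences were taken after adding 5 CPM, which understates the difference of low genes, and a gene is called at least 2-fold higher or lower on that scale. The comparison of chosen and other nuclei is the contrast of the rule, and for that reason no test was applied to it.

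Nrxn3 (GRCm39, chr12:88689646-90301709, plus strand) was at 5062, 4753 and 5456 CPM in the chosen nuclei of wells C3, C4 and C5, and at 127, 162 and 123 CPM in the other nuclei of the same wells. Its other-nuclei level in RPC1 was 136 CPM. The nuclei of RP1, RP2 and RPC2 that did not meet the rule were alike, at 147, 125 and 155 CPM. A low level of Nrxn3 was thus common to the 4 tumors. Lrrtm4 (chr6:79995860-80787124, plus strand), the postsynaptic partner, was at 869, 1081 and 1100 CPM in the chosen nuclei of the 3 wells and at 20.6 CPM in the other nuclei.

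Grik2 (chr10:48970929-49664880, minus strand) was at 1574, 1760 and 1128 CPM in the 3 wells against 35.3 CPM in the other nuclei. Erbb4 (chr1:68071345-69147619, minus strand) was at 822, 564 and 564 CPM against 14.6 CPM. Adarb2 (chr13:8252897-8818800, plus strand) was at 1197, 1711 and 1015 CPM against 25 CPM. In no well did the levels of chosen and other nuclei overlap for any of the 5 genes, which the rule itself made likely. The ratios ran from 37.4-fold for Nrxn3 to 51.3-fold for Adarb2, and the chosen nuclei held 66.8% to 73.4% of the transcripts of these genes in RPC1. Adarb2 in the nuclei of RPC2 that did not meet the rule, at 52.7 CPM, was above its level in the corresponding nuclei of RPC1.

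Beyond the 5 genes, further neuronal genes were higher in the nuclei. Of 10377 genes measured at 10 CPM or more in the chosen or the other nuclei, 576 (5.55%) were at least 2-fold higher in the chosen nuclei and 202 (1.95%) at least 2-fold lower, with a median log2 difference of -0.03. The count of lower genes depended on the setting: it was 410 with an offset of 1 CPM, and 742 when the 80 deepest chosen nuclei, which held 57.2% of the transcripts of the group, were left out. A gene that reached 10 CPM through the chosen nuclei alone had to be higher in them. When genes were instead required to reach 10 CPM over all nuclei of RPC1, a filter chosen after seeing the data, 272 of 9712 genes (2.80%) were at least 2-fold higher and 199 (2.05%) lower. The counts of gene lists below are descriptions under the first filter, to be read against 5.55% and 1.95%, and are given under the second where it changes them.

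The 20 leading genes were 3.91 to 4.78 higher on the log2 scale, with a median of 4.19. They were picked as the highest in the chosen nuclei, so that their detection there is a description. A chosen nucleus held a median of 12 of these 20 genes, a nucleus in the cluster described below that did not meet the rule a median of 10, and a nucleus of RPC1 outside the cluster a median of 0. After thinning to 2000 transcripts the medians were 8, 4 and 0.

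Gria4, a subunit of AMPA receptors, ranked first, and Grm7 was the other glutamate receptor among the 20. Gria4 was at 672, 715 and 652 CPM in the chosen nuclei of the 3 wells and 19.8 CPM in the other nuclei of RPC1. Nuclei that did not meet the rule held 63.1 CPM of Gria4 in RP1, 16.5 CPM in RP2 and 9.28 CPM in RPC2, all far under the chosen nuclei. Grm7, a presynaptic metabotropic glutamate receptor, was at 351 CPM against 13.9 CPM. Over the list of ionotropic receptor subunits and their partners, 8 of 14 measured genes were at least 2-fold higher and 0 lower (median log2 difference 1.1), and 5 of 11 under the filter over all nuclei. The kainate subunit Grik4 was at 82.8 against 6.02 CPM, the NMDA receptor subunit Grin3a at 61.2 against 2.79 CPM and the AMPA subunit Gria2 at 362 against 128 CPM. Gria1, Grin2b and Neto2, an auxiliary subunit of kainate receptors, were also more than 2-fold higher. The metabotropic receptors did not all lie on one side: of 3 measured, Grm3 and Grm7 were higher, and Grm5 was lower, at 345 against 791 CPM. Under the filter over all nuclei 1 of 2 was higher and 1 lower.

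Receptors for inhibitory transmitters followed for a few members. Of 7 measured GABA and glycine receptor genes, Gabrb1, a GABA-A receptor subunit (113 against 21.5 CPM), and Gabbr2, a GABA-B receptor subunit, were at least 2-fold higher and 0 were lower, and under the filter over all nuclei 1 of 5 was higher. Kctd16, which encodes an auxiliary subunit of GABA-B receptors, was among the 20 leading genes, at 348 against 13.8 CPM. So was Kcnj3, an inwardly rectifying potassium channel that such receptors open, at 270 against 11.5 CPM. Of 21 measured potassium channel genes 8 were higher and 2 lower, and under the filter over all nuclei 6 and 2 of 19, with a median log2 difference of 0.00. Of 14 sodium and calcium channel genes 3 were higher and 0 lower under both filters.

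Adhesion and guidance receptors formed the largest group. Of 32 measured genes of synaptic adhesion and axon guidance, 19 were at least 2-fold higher and 2 lower, with a median log2 difference of 1.53 against -0.03 over all measured genes. Under the filter over all nuclei 15 of 28 were higher and 2 lower, with a median of 1.05 against -0.06. Adgrb3, an adhesion receptor of synapses, was at 1157, 1154 and 911 CPM in the 3 wells and at 37.9 CPM in the other nuclei. Unc5d, of the netrin receptor family, was at 316 against 7.96 CPM, Negr1, an immunoglobulin-domain adhesion protein, at 485 against 19.1 CPM, Cdh12, a cadherin, at 205 against 6.35 CPM, and Cntn6, a contactin, at 105 against 2.29 CPM. Cntn6 varied most over the wells, at 84.0, 67.0 and 160 CPM.

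Among the other adhesion and guidance genes, the contactin-associated Cntnap2 was at 1791 against 393 CPM, the receptor phosphatase Ptprd at 218 against 34.1 CPM, the Slit receptor Robo2 at 283 against 45.0 CPM and the ephrin receptor Epha5 at 151 against 6.78 CPM. Ptprt and Cntnap5b went the other way, at 1065 against 2298 CPM and 418 against 895 CPM. The family of Nrxn3 and Lrrtm4 did not move as a whole. Of 10 further neurexins and neurexin ligands, Lrrtm3 (24.7 against 1.40 CPM) and Nlgn3 were higher and 0 were lower, with a median of 0.06. Under the filter over all nuclei 0 of 8 were higher.

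The remaining leading genes were of mixed function. St8sia2, which adds polysialic acid to the adhesion protein NCAM, was at 141 against 4.51 CPM. Khdrbs2, an RNA-binding splicing regulator, was at 144 against 4.84 CPM, Akap6, an anchor of protein kinase A, at 318 against 14 CPM, and Dach1, a transcriptional regulator, at 503 against 15.9 CPM. Fam135b, Crtac1, B3galt1, Slc35f1, Sgip1 and Thsd7a completed the 20. Some of these genes also occur outside neurons. In RPC1, 36 nuclei met the endothelial marker list and no other marker list. They held 272 CPM of Dach1, 272 CPM of Sgip1 and 305 CPM of Thsd7a. With the neuroendocrine and pan-neuronal lists ignored, there were 57 such nuclei, at 161, 154 and 170 CPM.

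**Figure D2:**
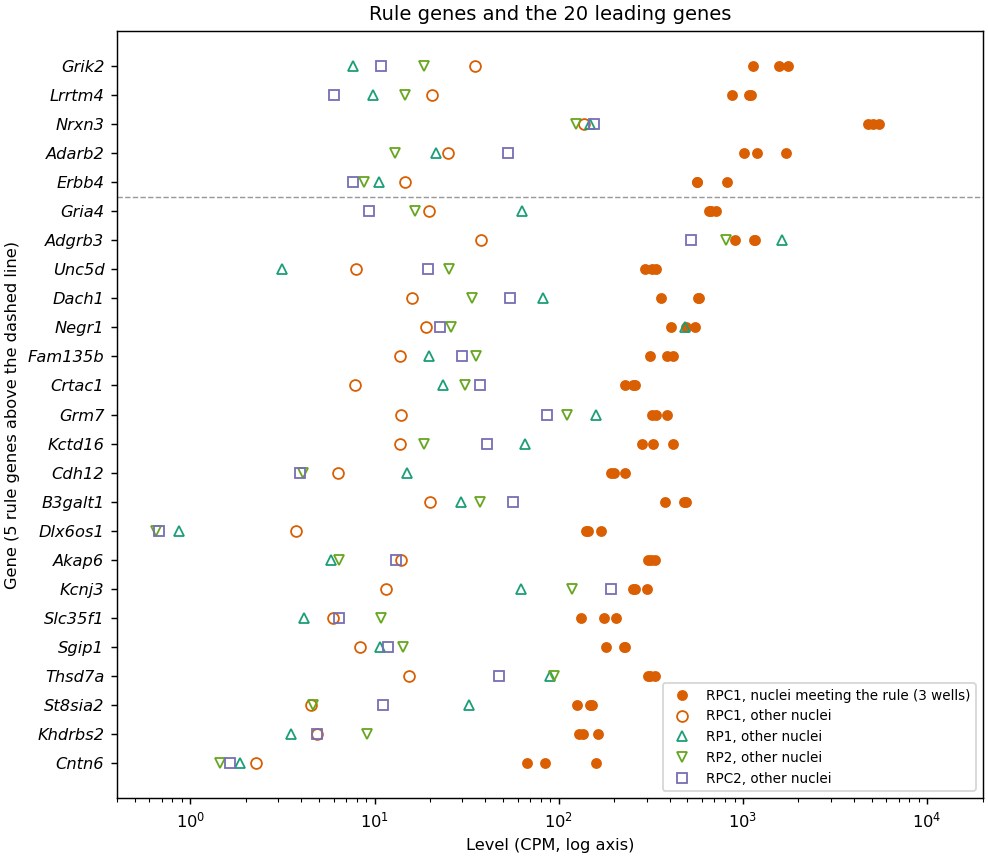
Levels (CPM, log axis) of the 5 genes of the rule, above the dashed line, and of the 20 leading genes. Filled points are the chosen nuclei of RPC1 in each of the 3 wells, and open symbols the nuclei of RPC1, RP1, RP2 and RPC2 that did not meet the rule. Gria4 stands at 652 to 715 CPM in the chosen nuclei and at 19.8 CPM in the other nuclei of RPC1, while Adgrb3 stands higher in RP1 (1627 CPM) than in the chosen nuclei (1074 CPM).

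Set beside the other tumors, the leading genes were not all particular to the chosen nuclei. The 20 genes were ranked by chosen over other nuclei of RPC1, which favors high levels in the first and low levels in the second. The counts over these 20 genes are therefore descriptions, and the share over all measured genes was not counted. For 18 of the 20 genes the chosen nuclei lay above the nuclei of each of the 3 other animals. Adgrb3 did not, with 1627, 810 and 520 CPM in RP1, RP2 and RPC2 against 1074 CPM in the chosen nuclei, and Negr1 stood at 487 CPM in RP1 against 485 CPM. For 12 of the 20 genes the other nuclei of RPC1 lay below the nuclei of each other animal, which the ranking favored. Adgrb3, Negr1, Grm7 and Kcnj3 were among them, and a low level in the rest of this tumor entered their ratio within RPC1. Dlx6os1 was the clearest opposite case, at 144, 169 and 141 CPM in the chosen nuclei of the 3 wells, 3.77 CPM in the other nuclei and between 0.650 and 0.868 CPM in the 3 other animals. Dlx6os1 is a noncoding RNA that overlaps Dlx6 on the opposite strand, and without a statement on strand the reads of both cannot be told apart. Dlx6 itself was at 10.8 against 0.31 CPM.

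The ERBB pathway around Erbb4 showed no common shift. Of 6 further measured neuregulin and ERBB genes 1 was higher and 1 lower, with a median of -0.67. The ligand gene Nrg3 was at 252, 164 and 110 CPM in the 3 wells against 10.9 CPM in the other nuclei, and the receptor gene Egfr was at 151 against 308 CPM. Of the adenosine deaminase family, neither of the 2 genes measured beside Adarb2 differed by 2-fold.

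Markers that define neuron types were mostly scarce. The nuclei held 25 transcripts of Gad1, the GABA-synthesizing enzyme (6.95 CPM against 4.5 CPM), 2 of Gad2 and 1 of Slc32a1, the vesicular GABA transporter, in 404 nuclei. Levels of Gad1 in the nuclei of the 3 other animals, 30.3 to 53.3 CPM, were higher. Among the 9 GABAergic markers, 2 were at 0 and 3 were measured, all 3 at least 2-fold higher, Dlx6os1 and Dlx6 among them, of which 1 remained measured under the filter over all nuclei. The summed level of the list was 183 CPM against 9.73 CPM in the other nuclei and 50.2 CPM in RPC2, and most of it was Dlx6os1. Vip, Sst, Lhx6 and 1 other of the 12 interneuron subtype markers were at 0. Of the 3 that were measured, 1 was at least 2-fold higher and 0 lower, and 0 of 2 were higher under the filter over all nuclei. The interneuron list nevertheless summed to 519 CPM in the chosen nuclei against 269 CPM in the other nuclei. The vesicular glutamate transporters had 3 (Slc17a6), 1 (Slc17a7) and 8 (Slc17a8) transcripts. Isl1, a transcription factor of motor and sensory neurons and of some endocrine cells, was at 37.2 CPM against 0.87 CPM and at or under 0.06 CPM in the 3 other animals. It is 1 of 12 peripheral and enteric neuron markers, of which 3 were at 0. Of 4 measured, 2 were at least 2-fold higher and 0 lower, and 0 of 2 were higher under the filter over all nuclei. That list summed to 171 CPM in the chosen nuclei against 198 CPM in the other nuclei.

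General neuronal genes were higher for part of the list. Of 9 measured pan-neuronal genes 4 were at least 2-fold higher and 0 lower (median log2 difference 0.89), and 2 of 7 under the filter over all nuclei. Dcx, a microtubule protein of migrating neurons, was at 57.0, 57.3 and 70.1 CPM in the 3 wells against 2.85 CPM, Rbfox3, the NeuN antigen, at 119 against 20.5 CPM, and Elavl4 at 352 against 163 CPM. The list sum, however, was 8141 CPM in chosen and 7903 CPM in other nuclei, since the tumor as a whole expressed Syt1 and other members. No class of neurons was named from these markers.

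Neuroendocrine markers were present in the nuclei, and 1 of 14 was 2-fold lower. All 14 neuroendocrine markers were measured, and Calca, the calcitonin and CGRP gene, was the only one that differed by 2-fold, at 638, 764 and 914 CPM in the chosen nuclei and 1481, 1832 and 1923 CPM in the other nuclei of the 3 wells. The well levels of the 2 groups did not overlap. The granule protein gene Chga was at 133 against 186 CPM. Ncam1 was at 1244 against 749 CPM. The list sum was 3353 CPM against 4419 CPM, and most of that difference was Calca, without which the sums were 2587 and 2686 CPM. Of the 13 markers other than Calca, 4 were higher and 9 lower in the chosen nuclei, by less than 2-fold. Nkx2-1, a lung lineage factor, was about as high in both, at 46.2 CPM in the highest tercile described below and 49.3 CPM in the nuclei outside the cluster.

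The 10 lowest genes lay 1.29 to 1.42 below the other nuclei on the log2 scale. Col8a1, a collagen gene and the most abundant of them by counts, was at 1226, 1461 and 1340 CPM in the chosen nuclei of the 3 wells and 3269, 3343 and 3146 CPM in the other nuclei. Piezo2, a mechanosensitive channel, was at 337 against 913 CPM and Thrb, a thyroid hormone receptor, at 60.1 against 166 CPM. Ano9, Arhgef38, Mapk13, Dscaml1, Gm39185, Rab27b and Lrrk1 were the others.

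These averages joined nuclei that differed in degree. The 404 nuclei were split into terciles by the share of their transcripts in the 5 genes (135, 135 and 134 nuclei), and the 20 leading genes, which the split did not count but which were picked as the highest in the same nuclei, summed to 3953, 8441 and 11801 CPM from the lowest to the highest tercile. The 202 nuclei that lay in the same cluster without meeting the rule held 2195 CPM of them, and the 10247 nuclei outside held 160 CPM. Gria4 was at 347, 827 and 1276 CPM over the terciles against 11.3 CPM outside. Single tumor genes went in different directions. Calca was at 1112, 527 and 228 CPM over the terciles against 1745 CPM outside, and Ncam1 at 1071, 1327 and 1550 CPM against 741 CPM. The 10 lowest genes, which were picked as the lowest in the chosen nuclei, were together at 3741, 1601 and 574 CPM against 6348 CPM. In the highest tercile each of these 10 genes was at 5.49% to 16.6% of its level outside. Median depth moved with the split, at 10081, 4025 and 3484 transcripts against 3342 outside, and its part in the order was not tested.

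**Figure D3:**
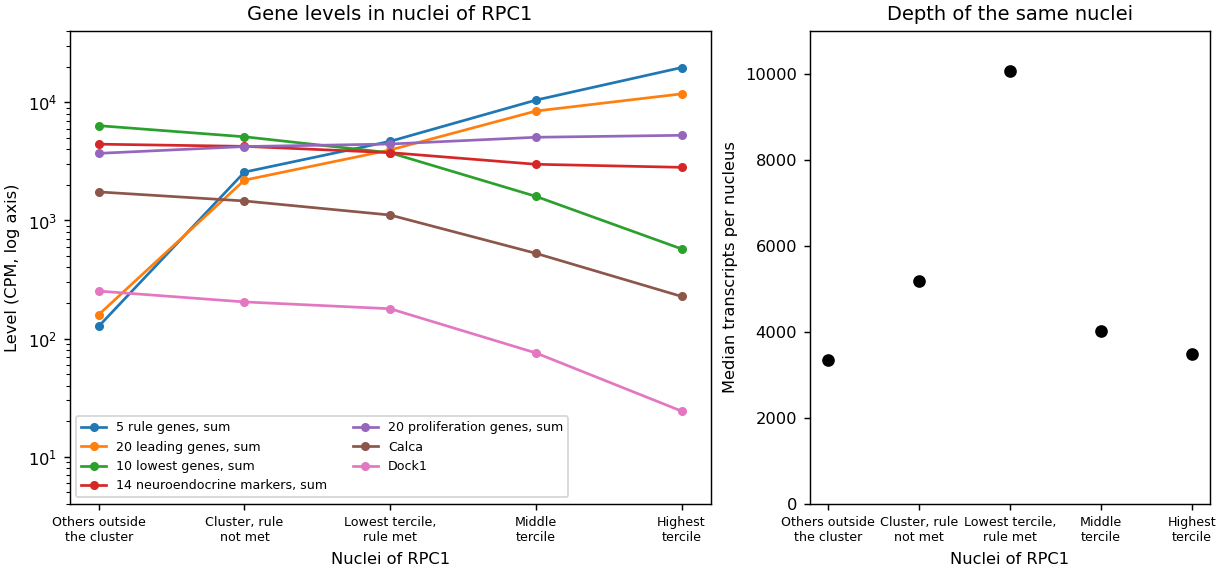
Left, levels (CPM, log axis) of gene groups and single genes, and right, median transcripts per nucleus, in 5 sets of RPC1 nuclei: those outside the cluster, those in the cluster that did not meet the rule, and the lowest, middle and highest tercile of chosen nuclei by their share of transcripts in the 5 genes. The 20 leading genes go from 160 to 11801 CPM and Calca from 1745 to 228 CPM across the sets.

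A list of genes that earlier results had shown high or low in 1 tumor was also counted. Of its 6 measured genes 2, Dock1 and Ror1, were at least 2-fold lower in the chosen nuclei and 0 higher. Dock1, a guanine nucleotide exchange factor, was at 244 CPM in the whole of RPC1 and at 29.2 to 48.0 CPM in the 3 other animals. It was at 179, 75.6 and 24.3 CPM over the terciles and at 252 CPM outside, so that the highest tercile was no higher than the other tumors. Corin, which was not high in RPC1 alone, at 357 CPM in RPC1, 195 CPM in RPC2 and 22.3 and 26.0 CPM in RP1 and RP2, was at 280, 126 and 43.8 CPM over the terciles. Casp8, counted over the whole gene, was at 77.8, 56.4 and 37.7 CPM over the terciles against 95.8 CPM outside.

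Other cell types of the lung were checked by their markers in the same nuclei. Of 8 endothelial markers Pecam1 exceeded 10 CPM, at 25 against 17.5 CPM in the other nuclei. The list summed to 47.3 CPM in the chosen nuclei and 83.0 CPM in the other nuclei. In the 36 nuclei of RPC1 that met the endothelial list and no other, it summed to 13553 CPM. The 8 macrophage or monocyte markers summed to 44.2 against 62.1 CPM, and to 4768 CPM in the 34 nuclei that met that list and no other. Of 8 neutrophil markers 7 were at 0. The T or NK cell list summed to 627 against 1303 CPM, nearly all of it Skap1, with Cd3e, Cd3d and Nkg7 at 0 in the chosen nuclei. Of 8 club cell markers 4 were at least 2-fold lower, and the list summed to 136 against 298 CPM. Other lists were higher in the chosen nuclei. Alveolar type 1 markers summed to 177 against 138 CPM, ciliated markers to 234 against 200 CPM and B cell markers to 50.9 against 34.3 CPM, of which Pax5 was at 36.1 against 4.69 CPM. The fibroblast list summed to 41.7 against 40.2 CPM, with Pdgfra at 27.0 against 5.17 CPM. Their part in the differences was not tested. Conversely, the 5 genes of the rule summed to 120 CPM in the endothelial and 62.3 CPM in the macrophage nuclei, against 9536 CPM in the chosen nuclei. These classes left out nuclei that also met the neuroendocrine or pan-neuronal list, which favored low neural genes in them. With these neural lists ignored, the 5 genes summed to 295 CPM in 57 endothelial and 58.7 CPM in 36 macrophage nuclei. The tumor gene Calca also appeared in the first 36 endothelial and 34 macrophage nuclei, at 163 and 194 CPM. Of the 404 chosen nuclei, 165 (40.8%) met the neuroendocrine list and 374 (92.6%) the pan-neuronal list, when both were applied like the rule. Of the 10449 other nuclei of RPC1, 7391 met the neuroendocrine list and 7522 the pan-neuronal list. A smaller share of the chosen nuclei thus met the neuroendocrine list, and most of the tumor also met the pan-neuronal list. The nuclei of the 2 lung classes held Calca at 9.4% and 11.2% of its level in the other nuclei, and the highest tercile held it at 228 CPM. Calca belongs to the neuroendocrine list, and nuclei that met this list were left out of both classes, which favored a low level. With the neural lists ignored, the neuroendocrine list summed to 2465 CPM in endothelial and 698 CPM in macrophage nuclei, against 653 and 540 CPM.

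Cell cycle genes were expressed in the nuclei, and none of them was 2-fold lower. Of 20 measured proliferation genes Kif11, a mitotic kinesin, was at least 2-fold higher, at 198, 219 and 215 CPM in the 3 wells against 88.5 CPM, and the median log2 difference of the list was 0.16. With 1 of 20 genes higher and 0 lower, against 5.55% and 1.95% of all measured genes, the count says nothing particular to cell cycle genes. Top2a was at 961 against 536 CPM and Mki67 at 1181 against 957 CPM. The proliferation list summed to 4440, 5065 and 5262 CPM over the terciles and to 3701 CPM outside. Of 7 measured hedgehog pathway genes 2 were higher and 0 lower, the transcription factor Gli2 (33.1 against 3.23 CPM) and the coreceptor Boc (29.2 against 5.04 CPM). Both passed the filter through the chosen nuclei alone, and 0 of the 5 genes that passed it over all nuclei were 2-fold higher. Gli2 was at 23.8, 41.8 and 45.0 CPM over the terciles and at 2.92 CPM outside. The 7 measured subtype and lineage factors and the 3 targeted genes, Rb1, Trp53 and Casp8, did not differ by 2-fold. Of 15 measured genes that the study names, 5 were higher, among them Npas3 (138 against 22.7 CPM) and Sox1 (10.8 against 0.64 CPM), and 5 were lower, among them Foxo1 (192 against 389 CPM), and since the study chose them on these samples they are not independent of the data. Under the filter over all nuclei 3 of 13 were higher and 5 lower.

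Long genes were over-represented among those that were higher. The 20 leading genes spanned a median of 402 kb on the genome and 19 of them more than 100 kb, whereas all measured genes had a median span of 38.4 kb and 20.8% lay above 100 kb. Of genes over 300 kb, 30.5% were at least 2-fold higher, against 1.83% of those under 10 kb. The part of gene length in the differences was not tested. Genes over 300 kb were also more often 2-fold lower, at 5.74% against 1.19%.

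Gene levels were then summarized by chromosome, as the median log2 difference of its genes minus that of all genes. In the highest tercile against the RPC1 nuclei outside the cluster, chromosome 19 was at 0.47, chromosome 11 at 0.32 and chromosome 6 at -0.24, while the other 17 chromosomes lay between -0.17 and 0.10. These 3 chromosomes had the largest offsets, so that lying outside the range of the others follows from naming them. The median over all genes, which was subtracted, was -0.17 in the highest tercile. In the lowest tercile the same chromosomes were at 0.15, 0.13 and -0.08. Over all chosen nuclei against the other nuclei of RPC1, chromosome 19 was at 0.32, chromosome 11 at 0.24 and chromosome 6 at -0.17, with the other 17 chromosomes between -0.10 and 0.10. The medians before subtraction were on the same side of 0 in each of the 3 wells taken alone, at 0.28, 0.26 and 0.21 for chromosome 19. RPC1 itself stood apart on chromosomes 19 and 6. Its other nuclei were at -0.80, -0.46 and -0.74 for chromosome 19 against RP1, RP2 and RPC2, and at 0.31, 0.24 and 0.29 for chromosome 6.

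In the highest tercile these offsets against RP1, RP2 and RPC2 were smaller, at -0.37, -0.13 and -0.39 for chromosome 19 and -0.05, 0.05 and 0.03 for chromosome 6. Chromosome 11 was at 0.24 against each of the 3 animals, where the other 17 chromosomes lay between -0.16 and 0.30, -0.24 and 0.28, and -0.15 and 0.09. It was therefore outside their range against RPC2 but not against RP1 and RP2, where chromosome X was at 0.30 and 0.28. In the other nuclei of RPC1 chromosome 11 was at -0.09, -0.06 and -0.06. These are medians of transcript levels, and no DNA copy number was measured.

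**Figure D4:**
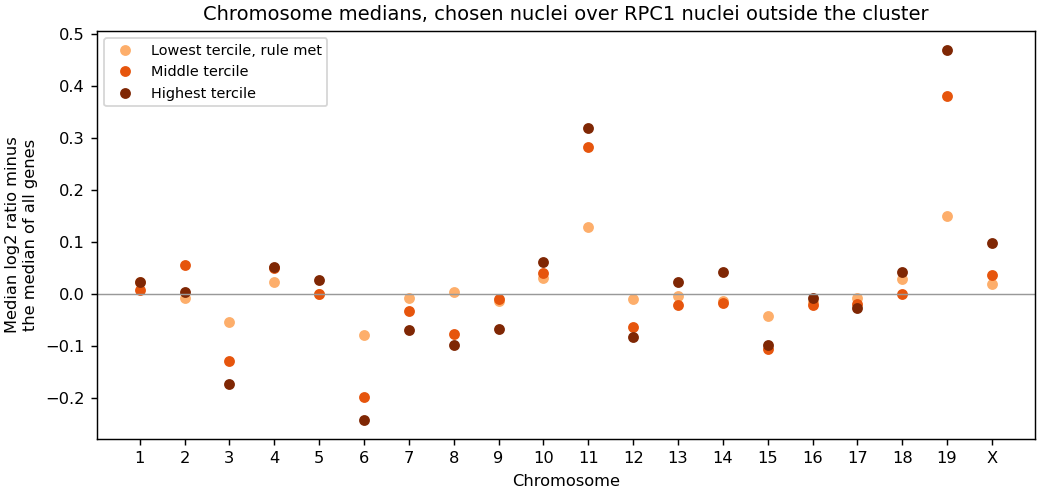
Median log2 difference of the genes of each chromosome, minus that of all genes, in each tercile of the chosen nuclei of RPC1 against the RPC1 nuclei outside the cluster. In the highest tercile chromosome 19 (0.47), chromosome 11 (0.32) and chromosome 6 (-0.24) have the largest offsets, and the other 17 chromosomes lie between -0.17 and 0.10.

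Whether the nuclei also resembled each other in genes that had not chosen them was described with the 5 genes left out. Of the 20 nearest neighbors of a chosen nucleus of RPC1, a mean of 73.8% and a median of 85% were themselves chosen, against 0.890% for the other nuclei of RPC1. In 326 of 404 nuclei at least 50% of the neighbors were chosen nuclei. Clustering gave 19 clusters, and 1 of them held 379 of the 404 nuclei of RPC1 and the 5 of RPC2. This cluster had 690 nuclei, of which 22 were from RP1, 46 from RP2, 581 from RPC1 and 41 from RPC2. Its nuclei from the 3 other animals that did not meet the rule were shallow, with medians of 855.5, 1006.5 and 884.5 transcripts, and had a median of 1 of the 5 genes. The 202 nuclei of RPC1 in it that did not meet the rule had a median of 3 of the 5 genes and 0.291% of their transcripts in them. Nuclei with fewer of the 5 genes thus lay in the same cluster as the chosen ones.

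The 5 nuclei of RPC2 lay with those of RPC1 and not with their own tumor: 65% of their neighbors were chosen nuclei and 6% came from RPC2, where the other nuclei of RPC2 had 86.4% of their neighbors in RPC2. Together they had 17845 transcripts, with 94 of Nrxn3, 28 of Erbb4, 24 of Grik2, 7 of Adarb2 and 2 of Lrrtm4. They also held 36 transcripts of Adgrb3, 14 of Gria4 and 15 of Negr1, and 0 of Dlx6os1 and Dock1. At this depth a count of 0 does not separate Dlx6os1 from the 150 CPM of the chosen nuclei of RPC1. The single nucleus of RP2 had no chosen neighbor, 2406 transcripts and 8 of its 11 transcripts of the 5 genes from Adarb2.

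The last comparison asked how much of the difference between genotypes went with these nuclei. Counts were summed per animal over all kept nuclei, and again without the chosen nuclei, and RPC was compared with RP by the quasi-likelihood test of edgeR. After Benjamini-Hochberg adjustment 0% of 21400 genes (0 genes) passed 0.05 in either direction with all nuclei, and 0% of 21386 without the chosen nuclei, with 3320 and 3279 genes at an unadjusted p below 0.05. DESeq2 called 694 and 668 genes. The planned test of RPC against RP within the chosen nuclei was not possible, because 1 animal had 10 or more of them.

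The chosen nuclei were selected for the 5 genes and lay almost wholly in RPC1, so that leaving them out had to lower the genotype estimates of these genes, and only the size is described. With all nuclei Grik2 was at 7.66 CPM in RP1, 18.7 CPM in RP2, 109 CPM in RPC1 and 11.3 CPM in RPC2. RPC1 alone was high, and it was at 35.3 CPM without the chosen nuclei. The log2 estimate for RPC over RP went from 2.13 ± 1.04 (SE) to 0.76 ± 0.66, with edgeR adjusted p of 0.377 and 0.587. Lrrtm4 went from 1.58 ± 1.04 to 0.07 ± 0.59, Nrxn3 from 0.94 ± 0.42 to 0.05 ± 0.17, Erbb4 from 1.46 ± 0.78 to 0.15 ± 0.36 and Adarb2 from 1.97 ± 0.37 to 1.12 ± 0.46. None passed the adjusted threshold in edgeR, with adjusted p between 0.266 and 0.480 for all nuclei. Without a filter on low counts all 5 passed in edgeR (adjusted p 5.4e-09 to 0.0028 with all nuclei), and Adarb2 passed in DESeq2 (0.000185). The nuclei were chosen on these 5 genes with earlier results known, so these p-values only describe the dependence on the setting. For Grik2 the SE was 0.37 without the filter, against 1.04 with it, and the filtered estimate was -0.24 when RPC1 was left out. The estimate of Adarb2 without the chosen nuclei was 0.48 when RPC2, at 52.7 CPM, was left out as well.

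Across the transcriptome the shift was small. Of 21346 genes tested in both fits, 94 moved by more than 0.5 on the log2 scale, among them 11 of the 20 leading genes. The leading genes were picked as the highest in the chosen nuclei of RPC1, so that leaving these nuclei out favored such a fall. Their count is therefore a description. Dlx6os1 went from 2.90 to 1.49 and Gria4 from -0.42 to -1.52, where RP1 had 63.1 CPM and RPC1 without the chosen nuclei had 19.8 CPM. The median estimate over all genes was -0.01 in both fits. The fits share most of their nuclei and are not independent.

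**Figure D5:**
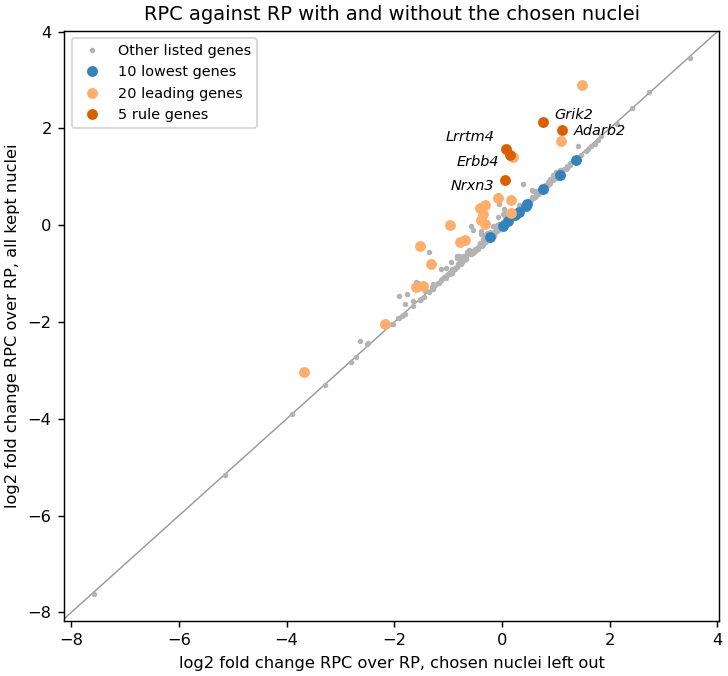
Log2 estimates of RPC over RP (edgeR, sums per animal) with all kept nuclei (vertical axis) against those without the chosen nuclei (horizontal axis), for the 5 genes of the rule, the 20 leading genes, the 10 lowest genes and the other listed genes. Points above the diagonal were lower without the chosen nuclei. The genes of the rule and the leading genes are high in the chosen nuclei by their selection, which favored points above the diagonal. Lrrtm4 goes from 1.58 to 0.07 and Gria4 from -0.42 to -1.52. No gene passed an adjusted p of 0.05 in either fit.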

How the data were processed

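The deposited matrices hold counts of unique transcripts per nucleus and gene, not normalized, 1 matrix per animal. The authors used the Parse pipeline with the build GRCm39 and Ensembl genes, assigned nuclei to animals by first-round well and merged 7 sublibraries, whose suffixes could not be tied to the numbered libraries. Animals were grouped by their labels. Matrix sums equalled the deposited transcript totals for all 38353 nuclei, and 9 of 12 columns of the table of nuclei were not used. Removed were 86 nuclei above 10% mitochondrial counts and 13 above 12000 genes, and 0 had under 300 counts. Depth was 32299909 to 72446861 transcripts per animal. The members and gene lists were chosen with earlier results of these data known.

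Shares were compared by an exact permutation test over animals, with exact (Clopper-Pearson) intervals, and 0 allows 3 counts. Replicates were animals, wells only divide 1 animal. Levels were CPM of summed counts, with log2 ratios at an offset of 5 CPM. Named genes were the 5 genes of the rule, list members, and the 20 highest (at least 20 counts in the chosen nuclei) and 10 lowest genes (at least 50 CPM in the other nuclei) by log2 ratio. Rn18s-rs5 and mitochondrial genes were left out. Nrg1 had no single identifier and no value. Genes were placed on GRCm39. Neighbors were found in 20 principal components of 2000 variable genes without the 5 genes, and clusters by the Leiden algorithm at resolution 0.4 (scikit-learn 1.9.0, igraph 0.11.9, leidenalg 0.10.2). Genotypes were compared on sums per animal with edgeR 4.0.16 (TMM, filterByExpr, quasi-likelihood, R 4.3.3), with DESeq2 1.42.0, other size factors, no filter, a replicate block and each animal left out as alternatives. The fit was tested on simulated data with known changes. Figures and sums were made in Python 3.11.15 with matplotlib 3.10.9, pandas 2.3.3, numpy 2.4.6 and scipy 1.17.1. Some genes of the lists are not reported here by name.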

Additional observations from a re-analysis of the deposited data

Results flagged for a closer look

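In RPC1 the share of nuclei that met the rule was 5.28% (81 of 1535) in sublibrary 6, and between 3.04% and 3.72% in the other 6 sublibraries. The gap to the nearest sublibrary was 0.697 of the whole range, above the critical value of 0.568 for 7 values, which chance exceeds in about 1 in 20 such groups. The exact 95% interval of sublibrary 6, 4.21% to 6.52%, covers counting error only. Its nuclei of RPC1 had a median depth of 3474 transcripts, within the range of the other sublibraries (3128.5 to 3675). Without it the share of RPC1 was 3.47%. The cause was not tested.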

How the results depend on the processing

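The share of RPC1 stayed above that of each other animal under the 8 other settings of depth, rule and filter, with the difference between RPC and RP between 0.863 and 2.25 percentage points, and it ran from 0.0436 without RPC1 to 3.72 when 1 animal was left out. The number of genes called between RPC and RP was 0 in edgeR with other size factors, with a replicate block and with each animal left out (0 to 0), but 694 by DESeq2 and 1546 without a filter on low counts, and 668 and 974 without the chosen nuclei. Without a filter all 5 genes of the rule passed with all nuclei (adjusted p 5.4e-09 to 0.0028 in edgeR), and in DESeq2 Adarb2 did (0.000185). The 5 genes are not part of the counts of called genes, and their p-values only describe the dependence on the setting. When each animal was left out in turn, the estimates with all nuclei ran from -0.24 to 2.99 for Grik2, -1.04 to 2.47 for Lrrtm4 and -0.27 to 2.23 for Erbb4, each lowest without RPC1. Without the chosen nuclei they ran from -0.29 to 1.52, -1.04 to 0.70 and -0.36 to 0.54, again lowest without RPC1, and from -0.079 (without RP2) to 0.21 for Nrxn3, which was -0.05 without RPC2. Adarb2 ran from 1.58 to 2.41 with all nuclei and from 0.48 (without RPC2) to 1.59 without the chosen nuclei, where its adjusted p without a filter was 0.0271. Lrrtm4 was then -0.17 without RP1 and -0.15 with the replicate block. The animal numbers are names only, and the block called 0 genes in both fits. The cause of these changes was not tested. Of 245 log2 ratios of 35 named genes under 7 alternatives, all 245 kept their direction and 77 moved by more than the spread over wells. Genes at least 2-fold lower numbered 410 with an offset of 1 CPM and 742 when chosen nuclei of 4 times the median transcripts or more were left out, against 202. Genes at least 2-fold higher numbered 272 with the filter on the level over all nuclei of RPC1, against 576. The cluster held 384 of 410 chosen nuclei, and 382 with 1000 variable genes. This filter and comparisons with nuclei outside the cluster, without deep nuclei, by single wells and with marker classes that ignored the neural lists were chosen after seeing the data. No paired analysis was possible for the chosen nuclei because 1 animal held them, and for the same reason neither the planned RPC against RP test within them nor levels without each animal could be run. Depth limits RP1 to shares under 0.0359%.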
